A study of Mus musculus with 20 samples.

Results

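The hearts of 7 AL mice were compared with those of 4 control mice within the first of the 2 sequencing runs of the study, which together hold 11 of its 20 mice. AL mice were λS-DH animals, that is, homozygous for a human λ light chain cDNA inserted at the mouse Ig kappa locus and for the DH-LMP2A background, in which amyloid deposits had been induced by injection of the recombinant variable domain and were present in the heart. Control mice (Ctrl) were DH-LMP2A mice without the human gene. The LMP2A protein of Epstein-Barr virus replaces the heavy chain in both groups, so that B cells and plasma cells develop but secrete light chains without heavy chains. AL and Ctrl mice thus differed by the human knock-in, by the injection as far as the controls were not injected, and by the deposits, and these 3 differences cannot be told apart in this comparison. The mice were of both sexes and the DH controls were age-matched, and neither the age of single mice nor an injection of the sequenced controls is given. The mice were chosen by their labels (amyloid-positive transgenic heart or DH control heart, batch 1), and every gene of the count table was considered.

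In AL amyloidosis, a light chain made by a plasma cell clone misfolds and is laid down as fibrils between the cells of several organs, the heart among them. The disease is known for stiff ventricles, for the release of natriuretic peptides by stretched cardiomyocytes, and for direct effects of the circulating light chain on these cells. Amyloid is also a particle that macrophages take up and try to digest, and the space that it fills is that of the extracellular matrix.

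Each library was a strand-specific, poly(A)-selected RNA-seq library of tissue from the apex. Total estimated counts per mouse were 46169178 to 62668174 (median 47797656) in AL mice and 43993297 to 52631618 in Ctrl mice, and mitochondrially encoded genes took 30.2 to 34.1% and 29.4 to 35% of them. Libraries correlated with a Pearson r of 0.984 to 0.996 in log2 CPM, and no 2 were identical. Libraries of the second run, used below for comparison, were shallower, at 7867647 to 11794640 counts. The ventricular identity of the tissue was checked with 20 ventricular cardiomyocyte markers, which summed to 79900 to 94600 CPM (counts scaled to a common library total) in AL and 95900 to 107000 CPM in Ctrl mice, against 54.8 to 67.5 and 50.8 to 58 CPM for 7 atrial markers. Igkc, the mouse kappa constant gene at the knock-in locus (chr6:70726435-70726966, GRCm38), had 0, 2, 4, 2, 6, 3 and 2 counts in AL1 to AL7 and 8, 274, 22 and 30 counts in Ctrl1 to Ctrl4. All 7 AL mice thus lay below all 4 Ctrl mice, but the gene was too low to be tested. The human λS transcript was not analysed here. By the levels of Xist and of Y-linked genes, 4 of the 7 AL mice and 1 of the 4 Ctrl mice were male, and with Xist as a covariate 818 genes were called in place of the 969 given below.

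A gene was called when edgeR's quasi-likelihood test gave a Benjamini-Hochberg adjusted p (FDR) under 0.05 over all 14116 genes tested and the log2 fold change of AL over Ctrl (log2FC) was at least 0.58 in size, which is a change of about 1.5-fold. All levels below are CPM after TMM scaling, which are not corrected for gene length, and errors of log2FC are standard errors (SE). Of the 14116 genes tested, 969 were called (6.86%), with 484 higher (3.43%) and 485 lower (3.44%) in AL mice. The median log2FC of the genes called was 0.862 among those higher and -1.04 among those lower, while the median over all genes tested was 0.0113. At an absolute log2FC of at least 1, 191 genes were higher and 249 lower. In 2049 genes (14.5%) the CPM ranges of the groups did not overlap, and this held for 277 of the genes called higher and 249 of those called lower. In bulk tissue, fewer cells of a type and less RNA per cell cannot be told apart.

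The mice also separated in a principal component analysis (PCA) of the 500 most variable genes. PC1 held 39.3% of the variance, and its scores were 20.3 ± 13.1 in AL and -35.5 ± 14.7 in Ctrl mice (SD, n = 7 and n = 4). The difference of 55.8 had p = 0.00303 in a two-sided exact permutation test, the smallest p that the 330 ways of choosing 7 of 11 mice allow. AL6 at -7.76 was the lowest AL mouse on PC1 and Ctrl2 at -13.5 the highest Ctrl mouse, so that the groups did not overlap but these 2 mice lay close to each other. Of the 500 genes, 30 were liver markers, whose summed level is drawn against PC1 since it moved with the groups. Without the liver markers the difference in PC1 was 50.9.

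**Figure D1:**
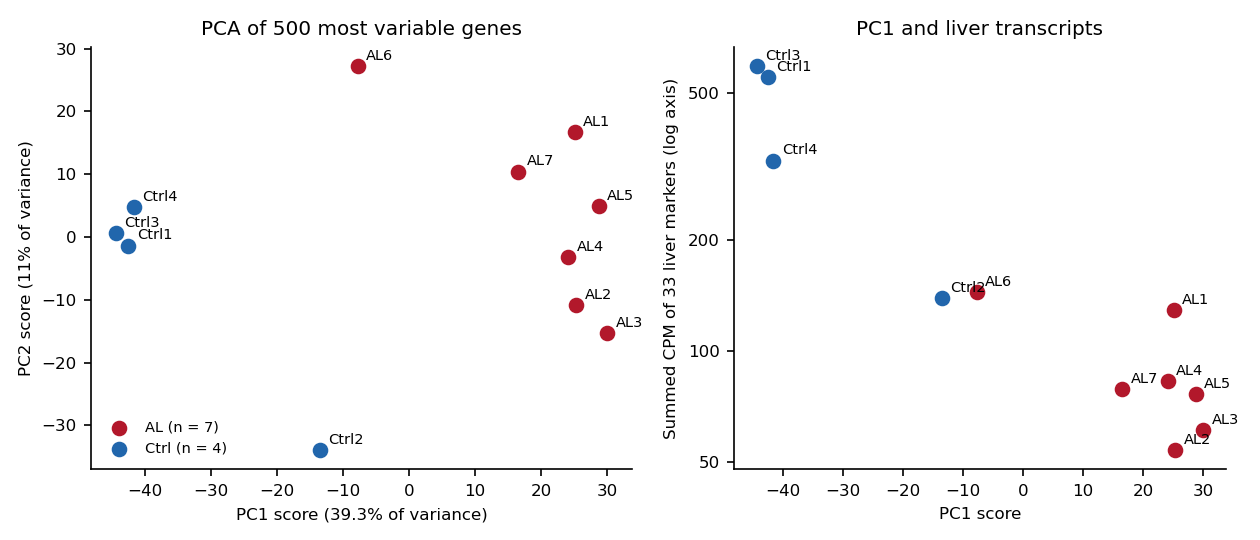
Left, PC1 against PC2 scores of the 11 mice (red, AL; blue, Ctrl; 1 point per mouse). Right, PC1 score against the summed CPM of the 33 liver markers tested, on a log axis: Ctrl1, Ctrl3 and Ctrl4 lay between 328 and 591 CPM, Ctrl2 at 139, and the AL mice between 53.9 and 144.

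**Figure D2:**
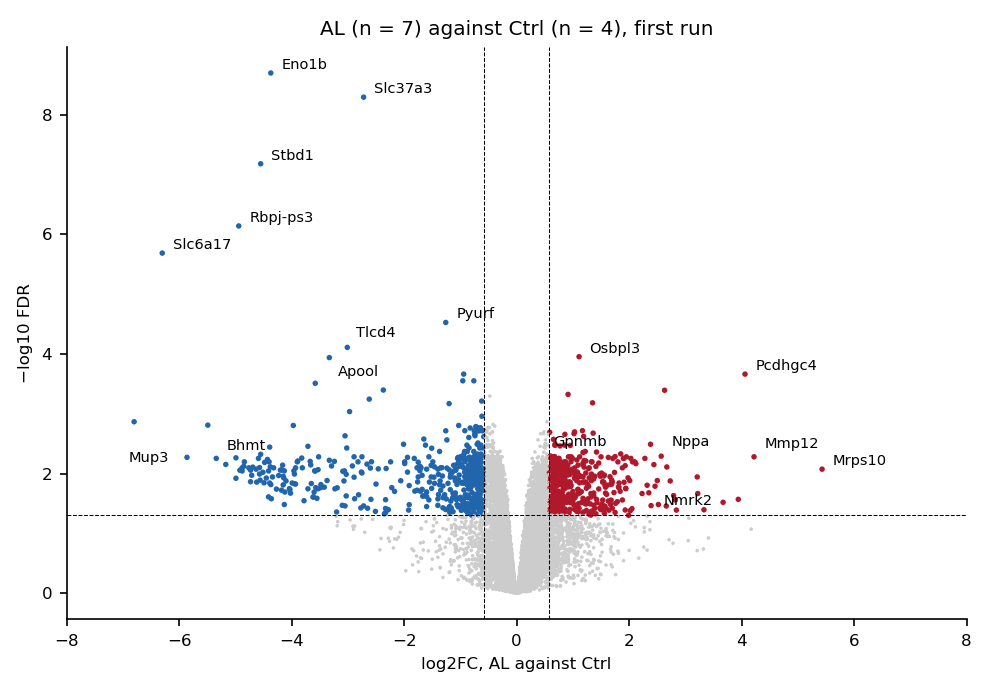
log2FC (AL over Ctrl) against −log10 FDR for the 14108 tested genes with a count in both groups; red points were called higher and blue points lower in AL mice, and dashed lines mark an FDR of 0.05 and log2FC of 0.58 in either direction. The 5 genes of lowest FDR, led by Eno1b, were all lower in AL mice and stood apart from the rest.

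Genes of cardiac stress were compared first, since they report on load and stretch of the ventricle. Of 19 tested genes of the cardiac stress and fetal program, 3 were called higher and 0 lower, namely Nppa, Nmrk2 and Ltbp2, and 16 had a positive log2FC (median 0.347). Nppa encodes atrial natriuretic peptide, which ventricles re-express under strain (chr4:148000722-148002079, GRCm38, plus strand). Its level was 249 CPM in the lowest, 442 in the median and 830 in the highest AL mouse, against 105, 43.9, 56.1 and 135 CPM in Ctrl1 to Ctrl4. Every AL mouse lay above every Ctrl mouse, and the means differed 5.94-fold (log2FC 2.57, SE 0.423, FDR 0.00512). Nmrk2, a muscle kinase that turns nicotinamide riboside into NAD precursor, stood at 9.25, 11 and 57.5 CPM in the lowest, median and highest AL mouse and at 6.68, 3.09, 4.32 and 1.72 CPM in the Ctrl mice. The groups did not overlap, and AL1, the highest, stood far above AL7 at 29.7 CPM, the next (log2FC 2.46, SE 0.606, FDR 0.0163). Ltbp2, a matrix protein that binds to fibrillin, ranged from 2.69 to 7.68 CPM in AL and from 1.28 to 2.45 CPM in Ctrl mice, again without overlap (log2FC 1.18, FDR 0.0139).

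Other genes of the same program were not called. Nppb, the B-type natriuretic peptide whose fragment is the clinical marker of cardiac amyloidosis, was at 66.4, 171 and 401 CPM in the lowest, median and highest AL mouse and at 139, 25.8, 93 and 114 CPM in Ctrl mice, and the groups overlapped (log2FC 1.23, SE 0.518, FDR 0.108). Timp1, an inhibitor of matrix metalloproteinases that belongs to the list of matrix proteases and inhibitors and rises in injured hearts, was not called either and had a log2FC of 1.05 (FDR 0.124). Myh7, the fetal myosin heavy chain, ran from 388 to 1740 CPM in AL and from 764 to 1880 CPM in Ctrl mice (log2FC -0.288, FDR 0.653), and Ankrd1, a stretch-responsive titin-binding protein, from 686 to 2380 against 622 to 1160 CPM (log2FC 0.745, FDR 0.084); both were picked out after their values were seen.

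Structural and excitation genes of the cardiomyocyte were close between the groups or lower in AL mice. Of 20 ventricular markers 0 were called in either direction (median log2FC -0.0522), yet 3 of them had an FDR under 0.05 at a smaller negative log2FC and 1 at a positive one. The α-myosin heavy chain Myh6 was at 13600 to 26000 CPM in AL and 23700 to 28600 CPM in Ctrl mice (log2FC -0.438, FDR 0.0352), and the sarcoplasmic calcium pump Atp2a2 was below every Ctrl mouse in every AL mouse (6800 to 10900 against 11100 to 12300 CPM, log2FC -0.4, FDR 0.0202). Both genes were picked out after their values were seen, and neither reached the log2FC of 0.58. Among 35 genes of calcium handling and ion channels, 0 were called higher and 2 lower, 7 had a negative log2FC with an FDR under 0.05, and the median was -0.298. The share called was 5.71%, against 6.86% of all genes tested. Their summed level was 16500 to 24800 CPM in AL and 25400 to 28300 CPM in Ctrl mice, without overlap. Most of this sum came from Atp2a2 (mean 8980 against 11900 CPM) and Pln (5500 against 6930 CPM, FDR 0.0565), the latter picked out after its values were seen. In the second run the median log2FC of the list was 0.0198. Over all genes tested, 1783 (12.6%) were lower and 1214 (8.6%) higher at an FDR under 0.05 with any log2FC.

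Adra1a, the α1A-adrenergic receptor of cardiomyocytes, was called lower. It stood at 8.6, 13.8 and 15.9 CPM in the lowest, median and highest AL mouse, and at 28, 36.4, 21.5 and 37.8 CPM in the Ctrl mice. No AL mouse reached the lowest Ctrl mouse (2.36-fold lower by the means, log2FC -1.24, SE 0.178, FDR 0.00274). Kcnd2, a subunit of the channel of the transient outward potassium current, was the other gene called (log2FC -0.7, FDR 0.0128), and AL mice at 18.3 to 33.8 CPM overlapped with Ctrl mice at 28.6 to 47.7 CPM.

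Of 7 atrial cardiomyocyte markers 3 were called higher and 0 lower, at levels far below those of ventricular genes. Myl7, the atrial regulatory light chain, was at 0.347 to 1.59 CPM in AL and 0.0741 to 0.242 CPM in Ctrl mice (log2FC 2.44, FDR 0.00709), and Myl4, the atrial essential light chain, at 2.3 to 3.75 and 0.726 to 2.16 CPM (log2FC 0.94, FDR 0.0231). Dkk3, a secreted glycoprotein of atrial myocytes, was at 5.55 to 9.27 and 1.92 to 4.52 CPM (log2FC 1.04, FDR 0.0109). For each of the 3 genes the groups did not overlap.

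Phagocyte genes were compared because amyloid is cleared, where it is cleared, by macrophages. Of 22 genes of lipid- and debris-laden phagocytes, 5 were called higher (Mmp12, Gpnmb, Lgals3, Atp6v0d2 and Abcg1) and 0 lower, 20 had a positive log2FC and the median was 0.593. Mmp12, the macrophage elastase (chr9:7344381-7369499, GRCm38, plus strand), was at 2.84, 6.78 and 18.3 CPM in the lowest, median and highest AL mouse. It was at 0.966, 0.245, 0.198 and 0.242 CPM in the Ctrl mice, so that the groups did not overlap and the means differed 18.9-fold (log2FC 4.22, SE 0.714, FDR 0.00525). Gpnmb, a transmembrane glycoprotein of lysosome-rich macrophages, rose from 0.692 to 1.29 CPM in Ctrl to 1.91 to 6.15 CPM in AL mice (log2FC 1.9, FDR 0.00558). Lgals3, the β-galactoside-binding lectin galectin-3, went from 2.37 to 4.91 CPM to 5.87 to 12.3 CPM (log2FC 1.34, FDR 0.00637), and Atp6v0d2, a macrophage subunit of the lysosomal proton pump, from 0.0411 to 0.148 CPM to 0.219 to 1.02 CPM (log2FC 2.67, FDR 0.00776). None of these 4 genes overlapped between the groups, whereas the cholesterol exporter Abcg1 did (3.31 to 6.84 against 2.69 to 3.88 CPM, log2FC 0.776, FDR 0.0142; picked out after its values were seen).

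General leukocyte markers were also compared. Among 30 macrophage and monocyte markers 5 were called higher and 0 lower (median 0.226), including Lgals3, the monocyte gene Plac8 (1.19 to 4.74 against 0.424 to 0.863 CPM, log2FC 1.81, FDR 0.0168), the chemokine receptor Ccr2 (log2FC 0.794, FDR 0.0405) and Ms4a7 (log2FC 0.695, FDR 0.0229). Their summed level overlapped, at 582 to 889 CPM in AL and 578 to 825 CPM in Ctrl mice. Of 34 chemokines and receptors, 6 were called higher and 0 lower (median 0.39), and their sum did not overlap (337 to 414 against 298 to 322 CPM). Cxcl14, a chemokine of epithelia and fibroblasts, reached 6.82 to 26.1 CPM in AL against 3.19 to 6 CPM in Ctrl mice (log2FC 1.66, FDR 0.0113), and the monocyte chemokine Ccl12 was also above every Ctrl mouse in every AL mouse (log2FC 1.28, FDR 0.00825). Cfb, factor B of the alternative complement pathway, rose without overlap (11.4 to 18.9 against 4.14 to 10.5 CPM, log2FC 1.18, FDR 0.00672). Among 30 complement genes tested, 2 were called higher and 1 lower. The share called was 10% for complement, 16.7% for macrophage and monocyte markers and 17.6% for chemokines and receptors, against 6.86% of all genes tested. T lymphocyte markers were called in 1 of 14, NK cell markers in 0 of 8, neutrophil markers in 0 of 10 and mast cell markers in 1 of 8.

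**Figure D3:**
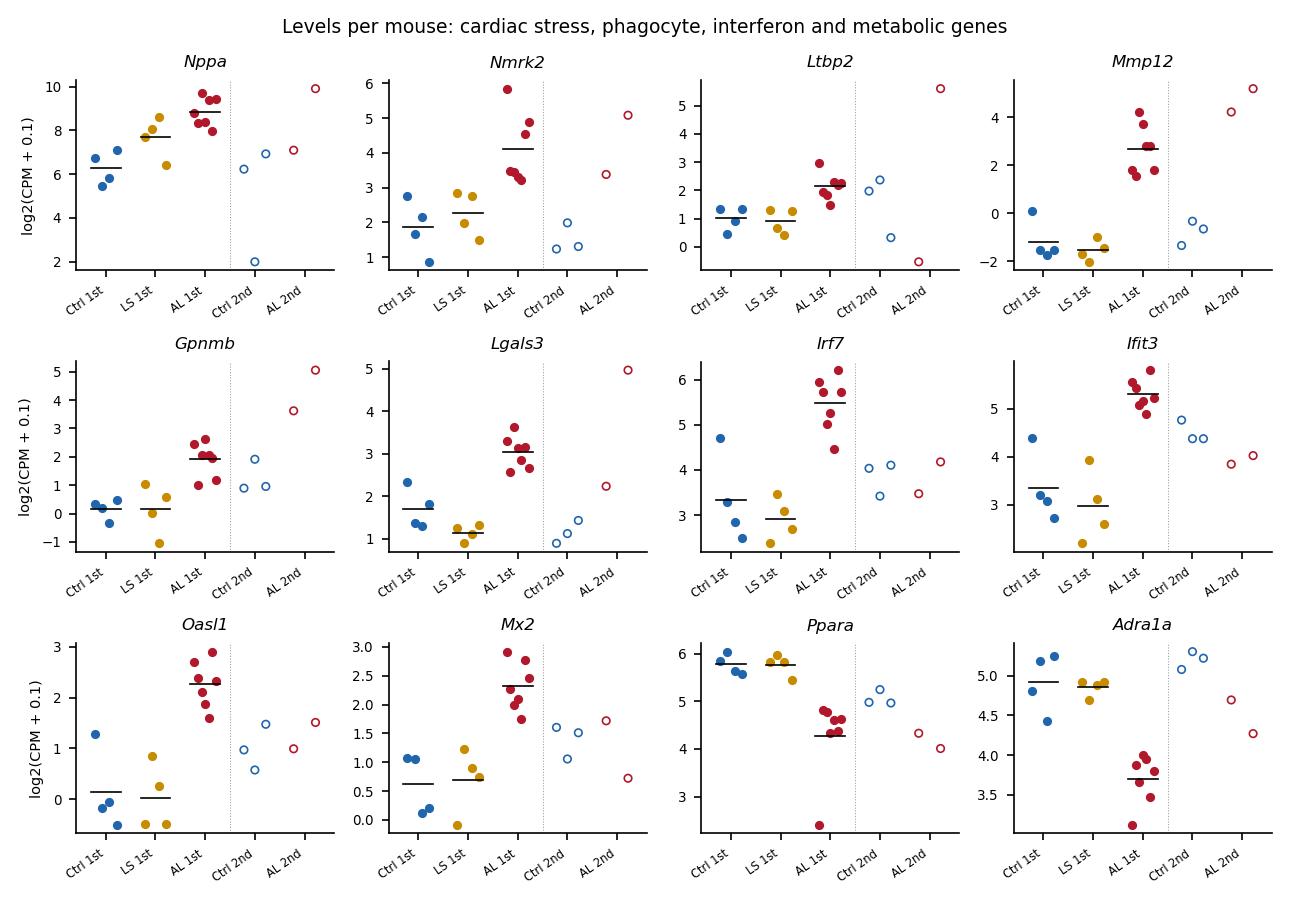
log2(CPM + 0.1) of 12 genes per mouse, in Ctrl, λS-DH mice without deposits (LS) and AL mice of the first run (filled, with the mean as a line) and in Ctrl and AL mice of the second run (open); the y axes differ between panels and do not start at 0. In the first run the AL mice lay above every Ctrl mouse for Nppa, Nmrk2, Ltbp2, Mmp12, Gpnmb, Lgals3, Ifit3, Oasl1 and Mx2, overlapped with Ctrl for Irf7, and lay below for Ppara and Adra1a.

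The matrix was compared because the deposits occupy it. Of 33 collagen genes, 2 were called higher (Col20a1 and Col9a3) and 1 lower (Col25a1), and the median was -0.0374. The share called was 9.09%, against 6.86% of all genes tested. The fibrillar collagens of scar tissue were not called: Col1a1 was at 52.1 to 79.1 CPM in AL and 35.2 to 83 CPM in Ctrl mice (log2FC 0.113, FDR 0.714), and Col3a1 at 114 to 237 and 103 to 266 CPM (log2FC -0.175, FDR 0.626); both were picked out after their values were seen. In the 2 AL and 3 Ctrl mice of the second run, the median of the collagens was 1.26, with log2FC of 3.23 for Col1a1 and 3.73 for Col3a1. For both genes the difference lay in AL9 alone: Col1a1 was at 28.9 CPM in AL8 and 693 in AL9 against 25.5 to 52.8 CPM in Ctrl mice, and Col3a1 at 72.3 and 2460 against 77.3 to 128 CPM. Of 18 fibroblast markers 0 were called.

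Genes of the matrix other than collagens held further calls. Among 52 matrix glycoproteins and crosslinking enzymes, 7 were called higher and 1 lower (median 0.178). Bgn, the proteoglycan biglycan, was at 346 to 462 CPM in AL and 175 to 297 CPM in Ctrl mice (log2FC 0.758, FDR 0.00635), and Sparcl1 at 439 to 643 and 265 to 398 CPM (log2FC 0.677, FDR 0.00887). In contrast Fbn1, the microfibril protein fibrillin-1, was lower in every AL mouse (35.2 to 57.6 against 60.9 to 104 CPM, log2FC -0.813, FDR 0.0131). Of 45 matrix proteases and inhibitors 5 were called higher and 1 lower, with Adamts6 higher (log2FC 0.97, FDR 0.00525) and Adam12 lower (log2FC -1.09, FDR 0.0087), both without overlap. Among 37 genes of TGF-β and BMP signalling, 3 were called higher and 1 lower; Tgfb2 was at 8.19 to 18.9 CPM in AL and 5.6 to 8.12 CPM in Ctrl mice (log2FC 0.883, FDR 0.0139).

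Markers of the mesothelium and epicardium were compared because these cells border the sampled tissue. All 11 tested had a positive log2FC (median 1.16) and 2 were called higher, Aldh1a2, an enzyme of retinoic acid synthesis, and Upk1b, a uroplakin of mesothelial cells. Their summed level was 24.3 to 121 CPM in AL and 25.3 to 55.3 CPM in Ctrl mice, and the part of these cells in the rises of matrix and chemokine genes was not tested. Skeletal muscle markers had 1 of 6 called higher, adipocyte markers 1 of 14 higher, Schwann cell markers 1 of 9 higher, and 0 of 10 erythroid markers were called (all 10 with a negative log2FC, summed at 1010 to 12200 CPM in AL and 4240 to 20600 CPM in Ctrl mice).

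Interferon-stimulated genes formed the list with the most genes called higher. These genes respond to interferon receptors through transcription factors that bind the interferon-stimulated response element (ISRE) of their promoters, and their products sense and block viral nucleic acids. Of 46 tested, 34 were called higher and 1 lower, and the median log2FC was 1.19. For 22 of the 34 every AL mouse lay above every Ctrl mouse, as it did for 277 of all 484 genes called higher. The summed level of the 46 genes nevertheless overlapped, at 1020 to 1450 CPM in AL mice and 1250, 874, 797 and 616 CPM in Ctrl1 to Ctrl4. Ctrl1 was the highest Ctrl mouse for all 34 genes called higher, AL6 was the highest of all 11 mice for 18 of them and AL1 for 13, and AL3 or AL5 was the lowest AL mouse for 16 and 14. Without Ctrl1 and Ctrl3, 31 genes of the list were called, all higher.

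Promoters of these genes are shown because the letters of the ISRE are what many of them share. The letters were not read to choose the list, but its genes are known to respond through this element. A high share among them follows from the choice of list and does not bear on their rise in AL mice. The motif GAAANNGAAA (TTTCNNTTTC on the other strand) was searched on both strands in the 300 bases from 250 before to 50 after each start site of the RefSeq table on GRCm38.p6, which held 24 of the 34 genes called higher. Of the 24, 14 held it (58.3%), as did 6 of 7 tested list members that were not called higher (85.7%), 30 of 322 genes called higher outside the list (9.32%), 12 of 357 genes called lower (3.36%) and 426 of all 10925 tested genes with a promoter (3.9%). A match describes the letters and does not show that a factor binds there. In the 30-base windows below, written 5′ to 3′ on the strand of the gene, capitals mark the motif. The windows are at chr19:34583397-34583426 for Ifit3, chr19:34640794-34640823 for Ifit1, chr3:142559989-142560018 for Gbp3, chr4:156200871-156200900 for Isg15, chr8:71537577-71537606 for Bst2 and chr5:120777715-120777744 for Oas3, with the first 3 genes on the plus strand and the last 3 on the minus strand.
Ifit3: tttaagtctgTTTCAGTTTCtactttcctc
Ifit1: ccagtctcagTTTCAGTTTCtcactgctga
Gbp3: caggacacagTTTCAGTTTCtatttcccag
Isg15: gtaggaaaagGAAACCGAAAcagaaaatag
Bst2: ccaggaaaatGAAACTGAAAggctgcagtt
Oas3: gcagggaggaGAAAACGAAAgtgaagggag

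The genes with these promoters were called higher as follows. Ifit3, an RNA-binding antiviral protein, was at 29.5, 37.5 and 55.8 CPM in the lowest, median and highest AL mouse and at 20.8, 9.11, 8.35 and 6.56 CPM in Ctrl1 to Ctrl4, without overlap (log2FC 1.85, SE 0.299, FDR 0.00469). Its neighbour Ifit3b has a near-identical promoter and transcript, so reads may be shared between them. Gbp3, a guanylate-binding GTPase, was at 24.1 to 41.6 CPM in AL and 7.04 to 22.4 CPM in Ctrl mice (log2FC 1.33, FDR 0.0102), and Isg15, a ubiquitin-like modifier, at 7.27 to 16.4 and 2.3 to 7.19 CPM (log2FC 1.26, FDR 0.0314). For both, Ctrl1 was the highest Ctrl mouse and lay just under the lowest AL mouse. Ifit1 (log2FC 1.33, FDR 0.0131), the viral restriction factor Bst2 (log2FC 1.09, FDR 0.0184) and the 2′-5′ oligoadenylate synthetase Oas3 (log2FC 1.84, FDR 0.0198) overlapped between the groups, in each case through Ctrl1. Of the 6 genes, Ifit3 follows the rule for named genes and the other 5 were picked out after their values were seen, as was Ifih1 below.

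Irf7, the transcription factor that amplifies type I interferon, followed the same order of mice (chr7:141262706-141266481, GRCm38, minus strand). It was at 61.4, 53, 32.1, 38.5, 22.1, 74 and 52.5 CPM in AL1 to AL7 and at 25.9, 9.68, 7.14 and 5.53 CPM in Ctrl1 to Ctrl4. AL5 lay below Ctrl1 and the other 6 AL mice above every Ctrl mouse (log2FC 1.98, SE 0.447, FDR 0.0118). The synthetase-like gene Oasl1 had the largest log2FC of the list (2.1, SE 0.389, FDR 0.00637), at 2.92 to 7.39 CPM in AL and 0.605 to 2.34 CPM in Ctrl mice. The dynamin-like GTPases Mx2 and Mx1 were also separate between the groups (log2FC 1.75 and 1.5, FDR 0.00521 and 0.00525).

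Not every member rose. Irgm2, an immunity-related GTPase, was called lower (28.8 to 55.2 against 42.9 to 68.9 CPM, log2FC -0.656, FDR 0.0192), and its family members Igtp (-0.976, FDR 0.0544), Iigp1 (-0.796, FDR 0.095) and Irgm1 (-0.0384, FDR 0.895) had a negative log2FC that did not pass the test. The last 3 were picked out after their values were seen, and Igtp and Irgm2 overlap on chr11, so that their reads may be shared. Of 20 genes of MHC class I presentation, 1 was called, H2-T23 (log2FC 0.607, FDR 0.0402), and of 39 genes of apoptosis, necroptosis and inflammasomes 3 were called higher, among them the nucleic acid sensor Zbp1 (log2FC 1.51, FDR 0.00983), also an interferon-stimulated gene, and Casp4 (log2FC 0.952, FDR 0.0139).

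The rise of these genes was not seen in the other AL mice of the study. In the second run (2 AL and 3 Ctrl mice, none of them shared with the first), 25 of the 34 genes had a negative and 9 a positive log2FC, with a median of -0.395 against 1.33 in the first run. Ifit3 was at 14.3 and 16.2 CPM in AL8 and AL9 and at 27.1, 20.7 and 20.7 CPM in Ctrl5 to Ctrl7, and Irf7 at 11 and 18 against 16.3, 10.6 and 17.1 CPM. A test of the interaction of group and run across all genes gave an FDR under 0.05 for 5 of the 34 (Gbp5, Ifit3, Ifit3b, Ifih1 and Ifit2), and an unadjusted p under 0.05 for 28. Over all 13835 genes of that test, 97 passed (0.701%) and 2117 had an unadjusted p under 0.05. Among the 472 genes called higher in the first run that had a value in the second, 24 passed. Genes called higher were chosen by first-run values that also enter this test, so a smaller difference in the second run is partly built in. Ifih1, a sensor of double-stranded RNA, rose in the first run (16.2 to 24.2 against 8.58 to 15.5 CPM) and was called lower in the second (7.21 and 7.64 against 15.7, 15.1 and 13.1 CPM, interaction FDR 0.0117). In λS-DH mice without deposits of the first run (LS, n = 4), the median of the 46 genes against the same Ctrl mice was -0.358.

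**Figure D4:**
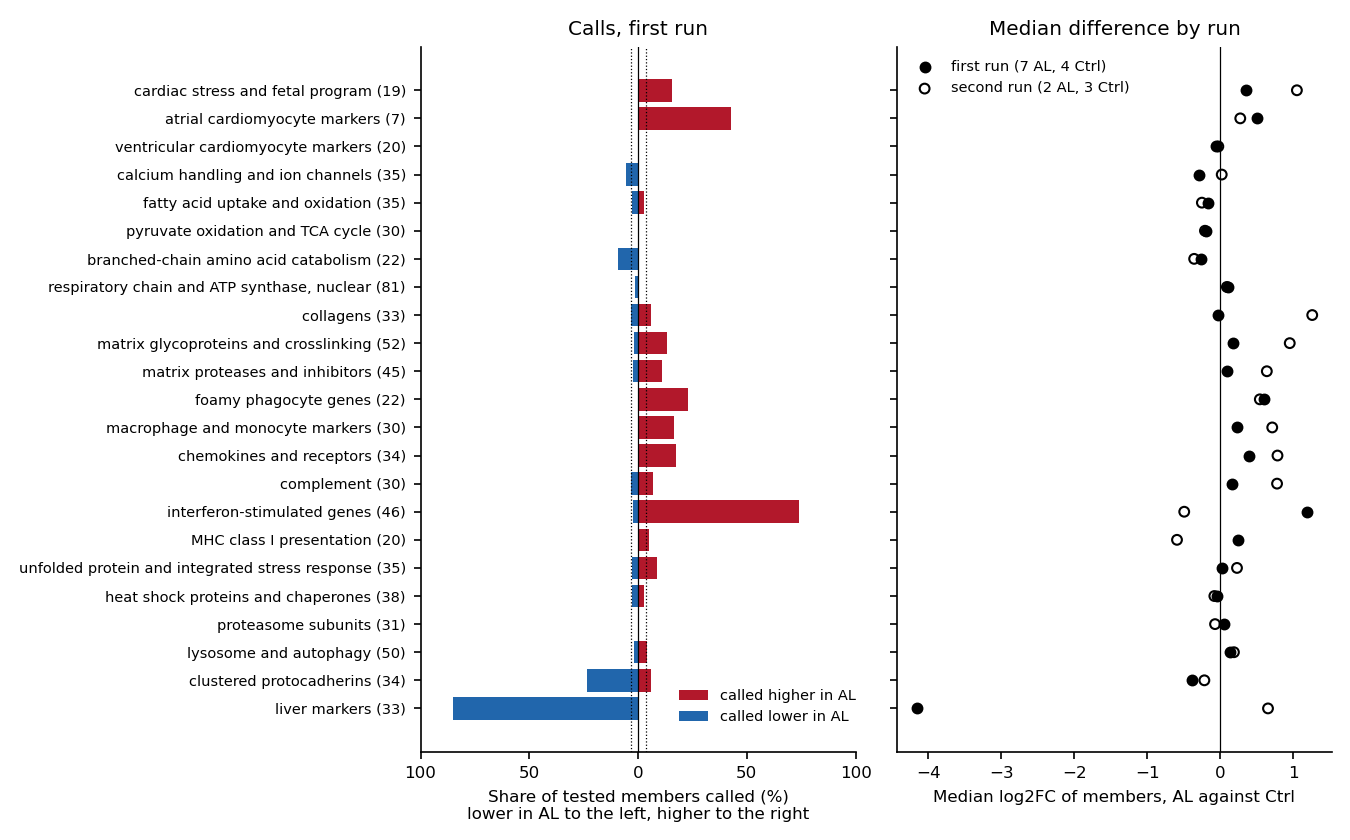
Left, share of the tested members of 23 gene lists (number tested in brackets) called higher (red, to the right) or lower (blue, to the left) in AL mice of the first run; dotted lines mark the shares over all genes, 3.43% and 3.44%. Right, median log2FC of AL over Ctrl per list in the first run (filled) and the second run (open): the medians of the interferon-stimulated genes were 1.19 and -0.494, and those of the liver markers -4.16 and 0.654. The last value rests on the 19 of 33 liver markers that had a value in the second run.

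Genes of energy metabolism were compared since the apex is rich in mitochondria. Ppara, the nuclear receptor that drives fatty acid oxidation genes, was called lower, at 5.21, 24.2 and 27.9 CPM in the lowest, median and highest AL mouse and 57.3, 65.7, 49.8 and 47.3 CPM in the Ctrl mice. AL1 was far below the other AL mice, and all 7 lay below every Ctrl mouse (log2FC -1.36, SE 0.316, FDR 0.0133). The enzymes of the pathway were not called: of 35 genes of fatty acid uptake and oxidation, 1 was higher (Fabp4, a lipid chaperone also made by endothelium) and 1 lower (Ppara itself), 8 had a negative log2FC with an FDR under 0.05, and the median was -0.162. Of 30 genes of pyruvate oxidation and the TCA cycle 0 were called, but 12 had a negative log2FC with an FDR under 0.05 and 0 a positive one. Their summed level was 17600 to 20100 CPM in AL and 20500 to 22600 CPM in Ctrl mice, without overlap. Citrate synthase (Cs) was at 869 to 1120 CPM in AL and 1190 to 1280 CPM in Ctrl mice (log2FC -0.341, FDR 0.008; picked out after its values were seen).

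Calls among genes of branched-chain amino acid catabolism were also lower in AL mice. Of 22 genes 2 were called lower and 0 higher (9.09%, against 6.86% of all genes tested). With an FDR under 0.05, 11 had a negative log2FC, as did 12.6% of all genes. The sum was 3530 to 4370 CPM in AL against 4760 to 5330 CPM in Ctrl mice. Ivd, isovaleryl-CoA dehydrogenase, was at 218 to 317 and 380 to 456 CPM (log2FC -0.587, FDR 0.00525). Mmut, the mitochondrial methylmalonyl-CoA mutase, had a median of 97.1 CPM in AL mice, all of which lay below the 135 to 196 CPM of Ctrl mice (log2FC -0.766, FDR 0.00562), and its log2FC in the second run was -0.929. Glycogen phosphorylase Pygb (383 to 638 against 809 to 1020 CPM, log2FC -0.85, FDR 0.00249) and the bifunctional enzyme Pfkfb1 (log2FC -1.04, FDR 0.00536) were the 2 genes called among 32 of glycolysis and glycogen (6.25%), both lower. Of 81 nuclear-encoded subunits of the respiratory chain, 1 was called lower (Cox8a, log2FC -0.84, FDR 0.0059), 14 had a positive and 7 a negative log2FC with an FDR under 0.05, and the median was 0.11. Of the 13 mitochondrially encoded genes, mt-Nd5 was called lower (9360 to 20200 against 22000 to 26600 CPM, log2FC -0.698, FDR 0.0102).

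Protein homeostasis genes were compared because the light chain is a misfolding protein. Of 35 genes of the unfolded protein and integrated stress response, 3 were called higher and 1 lower (median 0.0208). The share called was 11.4%, against 6.86% of all genes tested. Atf5, a transcription factor of the mitochondrial stress response, was at 32.6 to 58.5 CPM in AL and 25.9 to 31 CPM in Ctrl mice (log2FC 0.666, FDR 0.0223), and Ddit3, the stress factor CHOP, at 13.9 to 20 and 9.78 to 13.9 CPM (log2FC 0.582, FDR 0.0102). Of 38 heat shock proteins and chaperones 1 was higher (Hspb6) and 1 lower (Hspa12a), and of 31 proteasome subunits 0 were called. Of 50 genes of lysosome and autophagy 2 were higher and 1 lower, with 15 positive and 5 negative at an FDR under 0.05. Scarb2, the lysosomal receptor for glucocerebrosidase, was at 120 to 144 CPM in AL and 207 to 292 CPM in Ctrl mice (log2FC -0.941, SE 0.0887, FDR 0.000217). Of 72 cytosolic ribosomal proteins 2 were called higher (Rpl3 and Rpl26) and 0 lower, 36 had a positive log2FC with an FDR under 0.05, and 70 were positive (median 0.26).

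Transcripts of the liver had the median log2FC farthest from 0 of the 51 gene lists. Of 33 liver markers tested, 28 were called lower and 0 higher in AL mice, with a median log2FC of -4.16. Their summed level was 551, 139, 591 and 328 CPM in Ctrl1 to Ctrl4 and 53.9, 78.7 and 144 CPM in the lowest, median and highest AL mouse, the last of which, AL6, lay above Ctrl2. Trf, the iron carrier transferrin, made up much of the sum in AL mice, at 34.8 to 83 CPM against 58.4 to 103 CPM in Ctrl mice (log2FC -0.415, FDR 0.174; picked out after its values were seen). LS mice lay between 62.6 and 419 CPM. Of the 33 markers, 12 had no count in AL4, 11 in AL3, 4 in AL2 and 3 in AL5, whereas every marker had counts in AL1, AL6, AL7 and the 4 Ctrl mice. Albumin (Alb), the main product of hepatocytes, was at 0.0928, 0.892 and 21.5 CPM in the lowest, median and highest AL mouse and at 136, 20.9, 213 and 104 CPM in the Ctrl mice (log2FC -4.99, SE 1.13, FDR 0.012; picked out after its values were seen). The groups overlapped through Ctrl2 and the highest AL mouse. In the second run Alb was low in both groups, at 0.709 and 0.0858 CPM in AL8 and AL9 and 0.0765 to 0.0991 CPM in Ctrl5 to Ctrl7. The Ctrl mice of that run thus lacked the high Alb level of those of the first. Cps1, the first enzyme of the urea cycle, ran from 0.0313 to 0.817 CPM in AL and from 1.32 to 7.85 CPM in Ctrl mice (log2FC -4.55, FDR 0.00477), and Mup3, a major urinary protein, from 0 to 0.598 CPM and from 1.69 to 20.1 CPM (log2FC -5.86, FDR 0.00536). Proteins known from other amyloidoses were part of the pattern, with Apoa2 at 0.0928 to 1.99 against 1.45 to 15.2 CPM, Ttr at 0.344 to 2.93 against 1.79 to 17.9 CPM, and Saa4 at 0 to 0.0598 against 0.245 to 1.13 CPM.

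Many of these genes are best known from hepatocytes, and where the transcripts in these libraries were made was not tested. Without Ctrl1 and Ctrl3, the mice with the highest sums, 5 of the 33 markers were called (median -3.16), and the number of all genes called was 517, of which 351 were among the 969. With the mean log2 CPM of the liver markers as a covariate, 14 genes were called in all, 11 of them among the 969, and 0 of the interferon-stimulated genes, whose median was then 1.78. In that model Nppa had a log2FC of 1.83 (FDR 0.351), Mmp12 of 4.03 (FDR 0.159) and Ifit3 of 2.86 (FDR 0.056). Since the covariate moves with the group, part of the group difference is assigned to it. Without Ctrl1 and Ctrl3, Nppa (log2FC 2.49, FDR 0.0411), Mmp12 (4.99, FDR 0.0229), Gpnmb (1.75, FDR 0.0496), Lgals3 (1.5, FDR 0.0216), Irf7 (2.65, FDR 0.0174), Ifit3 (2.36, FDR 0.00187) and Adra1a (-1.5, FDR 0.00345) were called, while Nmrk2 (3.17, FDR 0.0589), Ltbp2 (1.29, FDR 0.075) and Ppara (-1.4, FDR 0.0717) were not.

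The genes of lowest FDR were few and sharply separated between the groups. Among called genes averaging 1 CPM or more over the 11 mice, there were 10, 2 higher and 8 lower, for which the lowest mouse of the higher group stood at 3 times or more the level of the highest mouse of the other group. Eno1b, an intronless enolase gene, had the lowest FDR of all, with 0.418, 0.518 and 0.607 CPM in the lowest, median and highest AL mouse and 11.4, 9.34, 11.5 and 9.87 CPM in the Ctrl mice (20.7-fold lower by the means, log2FC -4.37, SE 0.122, FDR 1.99e-09). Within each group the values varied little beside the gap. Slc37a3, a transporter of the endoplasmic reticulum and lysosome (chr6:39334773-39377675, GRCm38, minus strand), was at 2.24 to 3 CPM in AL and 16.1 to 18.3 CPM in Ctrl mice (log2FC -2.72, SE 0.0873, FDR 5.05e-09). Stbd1, a glycogen-binding protein (chr5:92603041-92606579, GRCm38, plus strand), was at 0.297 to 0.704 and 10 to 14.3 CPM (log2FC -4.55, SE 0.188, FDR 6.57e-08). The neurotransmitter transporter Slc6a17 was at 0.0334 to 0.156 and 4.13 to 10.1 CPM (log2FC -6.3, FDR 2.05e-06), and the mitochondrial cristae protein Apool at 2.49 to 3.19 and 11.9 to 44.1 CPM (log2FC -3.33, FDR 0.000115).

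In the other mice, Eno1b, Stbd1, Slc6a17 and Apool did not follow the group, whereas Slc37a3 did in the second run. Eno1b was at 11.5 and 23.9 CPM in AL8 and AL9 of the second run, at 0.294 CPM in Ctrl5 and at 18 and 13.5 CPM in Ctrl6 and Ctrl7, and in the LS mice it ranged from 0.42 to 11.8 CPM. Stbd1 was at 9.45 and 16.4 CPM in AL8 and AL9 and at 11 to 14.1 CPM in the Ctrl mice of that run (interaction FDR 2.45e-06), and Slc6a17 at 15.9 and 9.79 against 7.63 to 12.9 CPM (interaction FDR 1.2e-05). Apool likewise was at 35.4 and 23.9 against 28 to 32.7 CPM (interaction FDR 0.00415). Slc37a3 was at 8.39 and 2.23 CPM in AL8 and AL9 and at 12.3 to 18 CPM in Ctrl5 to Ctrl7, and was called lower there too (log2FC -1.51, FDR 0.0208). Pyurf, a partner of mitochondrial methyltransferases, and Osbpl3, an oxysterol-binding protein, also kept their direction: Pyurf was at 13.4 to 19.1 CPM in AL and 33.5 to 41 CPM in Ctrl mice (log2FC -1.26, FDR 2.97e-05) and had a log2FC of -1.25 in the second run, and Osbpl3 was at 37.6 to 50.9 and 18.1 to 23.2 CPM (log2FC 1.11, FDR 0.000111) with 0.721 in the second. In the LS mice, which carry the human gene without deposits, Pyurf was at 14 to 15.3 CPM and Osbpl3 at 52.9 to 63.9 CPM. Slc37a3 was at 11, 2.44, 2.14 and 2.29 CPM in LS1 to LS4, so that LS2 to LS4 lay at the level of the AL mice.

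**Figure D5:**
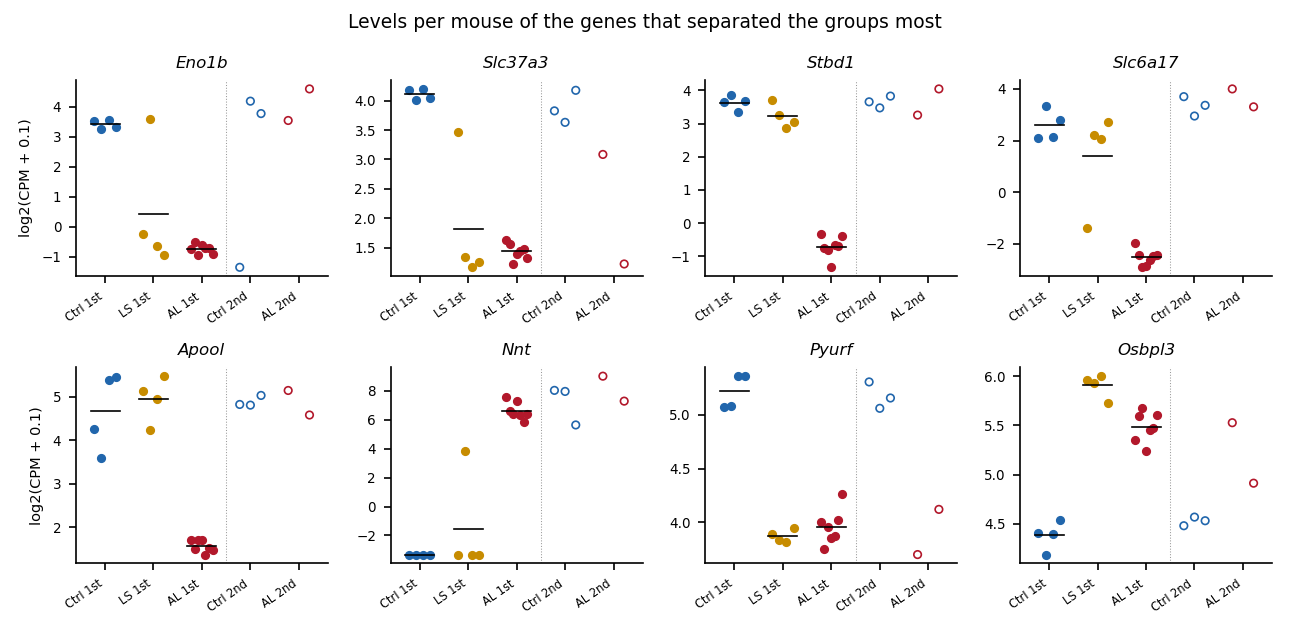
log2(CPM + 0.1) per mouse of 8 of the genes that separated AL from Ctrl most, in Ctrl, LS and AL mice of the first run (filled, mean as a line) and Ctrl and AL mice of the second run (open); the y axes differ and do not start at 0, and Nnt is the entry ENSMUSG00000116207, at 0 CPM in the 4 Ctrl mice of the first run only. In the second run the AL mice lay at the level of the Ctrl mice of that run for Stbd1, Slc6a17 and Apool, and apart from them for Slc37a3, Pyurf and Osbpl3.

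Some of these genes have a near-identical copy, between which reads can be divided. Nnt, the mitochondrial nicotinamide nucleotide transhydrogenase, has 2 entries in the annotation at almost the same place (chr13:119335448-119408997 and chr13:119335528-119408952, GRCm38, minus strand). The entry ENSMUSG00000116207 had 0 counts in all 4 Ctrl mice of the first run and 56.8 to 190 CPM in AL mice. Set against the floor of 3 counts per library, this was 1690-fold higher for the AL group as a whole, though not for its lowest mouse. The entry ENSMUSG00000025453 ran the other way, at 83 to 372 CPM in AL and 458 to 1010 CPM in Ctrl mice (log2FC -1.31, FDR 0.0162). Summed over both, Nnt was lower in AL mice (273 to 455 against 458 to 1010 CPM, log2FC -0.832, SE 0.2, FDR 0.0147). In the second run the entry ENSMUSG00000116207 was not absent from Ctrl mice. It was at 263, 250 and 50 CPM in Ctrl5 to Ctrl7 and at 520 and 157 CPM in AL8 and AL9. Deletion of exons of Nnt is known from C57BL/6J and absent from many other mouse strains, but the strain makeup of single mice is not given and its part was not tested. Sums over other pairs were closer between the groups: Eno1 with Eno1b had a log2FC of 0.297 (FDR 0.00778), Rbpj with its pseudogene Rbpj-ps3 0.0774 (FDR 0.567), Capza1 with Capza1-ps1 -0.118 (FDR 0.249) and Rps3a1 with Rps3a2 -0.0213 (FDR 0.853). These pairs were chosen after their values were seen. For Eno1b, Rbpj-ps3, Capza1-ps1 and Rps3a2 the single IDs had log2FC of -4.37, -4.94, 1.99 and 2.05. Of 150 pseudogenes tested 22 were called (14.7%), and of 13619 protein-coding genes 921 (6.76%).

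Clustered protocadherins, adhesion proteins whose genes lie side by side in clusters, also differed. Of 34 tested 8 were called lower and 2 higher (median -0.384), and their sum was 79.1 to 99.4 CPM in AL and 102 to 110 CPM in Ctrl mice. Pcdhb16 was at 1.43 to 2.07 CPM in AL and 2.87 to 3.51 CPM in Ctrl mice (log2FC -0.884, FDR 0.00335). Pcdhgc4 went the other way, at 6.72, 12.1 and 20.8 CPM in the lowest, median and highest AL mouse and at 0.781, 1.02, 0.346 and 0.726 CPM in the Ctrl mice (17-fold by the means, log2FC 4.06, SE 0.383, FDR 0.000217). No AL mouse came near a Ctrl mouse, and LS mice stood at 0.187 to 0.492 CPM. In the second run Pcdhgc4 was at 17.4 and 5.58 CPM in AL8 and AL9 and at 1.88 to 3.21 CPM in Ctrl mice (log2FC 2.2, FDR 0.0238). Because protocadherins of the α cluster (Pcdha) and of the γ cluster (Pcdhg) share their last exons, counts of members within either are not independent. This does not apply to the β genes (Pcdhb). The count was sensitive to single mice, with 5 members called without Ctrl3 and 4 without Ctrl4.

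Position along the genome was described because the human gene was inserted in embryonic stem cells, whose strain can remain as flanking DNA around the locus. Within 20 Mb of Igkc, 19 of 189 tested genes were called (10.1%), 6 higher and 13 lower, against 6.86% of all genes. The 19 include Pyurf, the liver marker Fabp1 and Herc6 of the interferon-stimulated genes, the last picked out after its values were seen. Within 10 Mb 6 of 48 and within 5 Mb 3 of 41 were called, and 1 of the last 3, Fabp1, is a liver marker. Across chromosomes the share lay between 5.39% on chr17 and 9.52% on chr14, with 7.32% on chr6, which holds Igkc. Slc37a3 and Osbpl3, which are not among the 19 genes within 20 Mb, are on chr6 as well.

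In the second run, whose floor of 3 counts lay at 0.254 to 0.381 CPM, 911 genes were called of 13835 tested (6.58%). Of the genes called in the first run, 862 had a value there, and 630 of them (73.1%) had the same sign, against 66% of all genes with values in both. The share was 71% for genes higher and 75.6% for genes lower in AL mice. Genes called in both runs numbered 139, or 14.3% of the first-run calls (16.1% of the 862 with a value in the second run) and 15.3% of the second-run calls, of which 72 were higher in both, 56 lower in both and 11 opposite. Nppa (log2FC 3.04), Nmrk2 (2.98), Mmp12 (5.75), Gpnmb (3.24) and Lgals3 (3.05) kept their direction. AL8 and AL9 differed from each other, however, with Lgals3 at 4.61 and 31.1 CPM and Ltbp2 at 0.591 and 48.3 CPM. Nppa was at 136 and 957 CPM in AL8 and AL9 and at 74.6, 3.86 and 121 CPM in Ctrl5 to Ctrl7, and was not called there (FDR 0.0516). The number of genes whose difference depended on the run was 39 without AL9 and 1935 without AL8, in place of 97.

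The λS-DH mice without deposits of the first run differed from the controls in few genes. Against the same 4 Ctrl mice, 3 of 14288 genes were called in LS mice (0.021%). Side by side, Nppa was at 86.2 to 390 CPM in LS mice, Mmp12 at 0.146 to 0.404, Lgals3 at 1.77 to 2.4, Irf7 at 5.08 to 11, Ppara at 43.7 to 62.3 and Adra1a at 25.9 to 30.2 CPM. All of these but Nppa lay outside the range of the AL mice, on the side of the Ctrl mice.

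Further lists are set beside the share over all genes tested, of which 6.86% were called. The share was 25% for amyloid-associated proteins and for immunoglobulin genes, 20% for sex-linked genes, 13% for NAD metabolism and 12.1% for endothelial markers. In the other lists of this paragraph it was 0 to 8.33%. Of 33 endothelial markers 3 were called higher (Egfl7, Angpt2 and Fabp4) and 1 lower (Angpt1, the ligand that keeps vessels quiescent), and of 17 pericyte and smooth muscle markers 1 was lower (Abcc9, a channel subunit). Dendritic cell and MHC class II genes had 1 of 16 higher, and B lymphocyte and plasma cell markers 1 of 15 lower, namely Jchain, the joining chain of secreted immunoglobulin, at 0.12 to 0.373 CPM in AL and 0.646 to 3.25 CPM in Ctrl mice (log2FC -3.02, FDR 0.00374). Jchain was also the 1 gene called among 4 immunoglobulin genes tested. Of 40 antioxidant and NRF2 target genes and of 23 genes of NAD metabolism 2 each were higher and 1 each lower, counting both Nnt entries in either list. Of 39 cell cycle genes 1 was higher and 1 lower, and the same held for 24 immediate-early genes (Ier3 higher, Zfp36 lower) and for 10 sex-linked genes (Tsix higher, Ddx3x lower). Of 20 proteins known to form or accompany amyloid, 1 was higher (Nppa) and 4 lower, all 4 also made by the liver, and the median log2FC was -0.164. The summed level of the 20 was higher in AL mice without overlap (4270 to 4920 against 3470 to 4130 CPM). Nppa, at a mean of 505 CPM in AL and 85.1 CPM in Ctrl mice, accounted for a large part of that difference. Among 19 circadian clock genes and 19 genes of the angiotensin and endothelin systems 0 were called.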

How the data were processed

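RNA from apical heart tissue of the 11 mice was sequenced as stranded poly(A) libraries. The authors deposited a merged table of estimated counts per gene from Salmon, as whole and fractional values (15.5% not whole in the first run); the submitters' processing notes name STAR and Salmon with GRCm38, and the methods of the study name the nf-core/rnaseq pipeline 3.12. Estimated counts were rounded to whole numbers before testing. Estimated counts of genes with similar sequence depend on how reads were divided between them.

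Of 25308 genes, 14116 passed filterByExpr (minimum count 10) over the 11 mice. Counts were scaled by TMM (factors 0.92 to 1.07) and tested with edgeR 4.0.16 (R 4.3.3), glmQLFit and glmQLFTest, for AL against Ctrl without covariates, and SE was the log2FC divided by the root of F. The difference between the runs was the interaction in the same model over the AL and Ctrl mice of both runs. limma 3.58.1 and DESeq2 1.42.0 served as alternatives, and the pipeline was tested on simulated counts. Coordinates are from GENCODE M21 (GRCm38), which matched 98.8% of the genes tested. Depth set a floor of 3 counts at 0.0479 to 0.0682 CPM in the first run and 0.254 to 0.381 CPM in the second. Floors cover counting error only.

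The 51 gene lists and the comparison itself were chosen with earlier results of these data known. Genes were named by a rule: the 15 largest rises and 15 largest falls without overlap at a mean of at least 1 CPM, the 10 of lowest FDR, up to 4 called members per list and direction, genes named in the transcriptome text of the study, the 5 of lowest FDR in the test between the runs, and Igkc, Xist and Y-linked genes as checks. The report names the part of these that its comparisons turn on, and each gene outside the rule is marked as chosen with its values known. The mice were separate animals and equal replicate numbers did not pair them. Some members of the lists are counted but not reported here by name.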

Additional observations from a re-analysis of the deposited data

Results flagged for a closer look

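Of 276 tests for a mouse far from the rest of its group, over the genes and list sums named, 17 (6.16%) passed Dixon's 95% critical value, where chance passes about 1 in 20. AL6 was the high AL mouse for 5 liver-made transcripts: Saa4 at 0.0598 CPM, Cps1 at 0.817, Mup3 at 0.598, Apoa2 at 1.99 and Ttr at 2.93 CPM. Ctrl1 was the high Ctrl mouse for Mup3 at 20.1 CPM, for Mmp12 at 0.966 CPM and for the interferon-stimulated genes Oasl1 at 2.34 and Zbp1 at 2.26 CPM. AL1 was the high AL mouse for Nmrk2 at 57.5 CPM and Ltbp2 at 7.68 CPM and the low one for Ppara at 5.21 CPM. The other mice that stood apart were AL3 for Myl7 at 1.59 CPM, AL7 for Gbp5 at 8.62 CPM, Ctrl4 for Dkk3 at 1.92 CPM, AL7 for the summed neutrophil markers at 32.3 CPM and Ctrl2 for the summed erythroid markers at 20600 CPM.

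The difference between AL and Ctrl mice depended on the sequencing run in 97 of 13835 genes by edgeR's interaction test. Among the genes named, the adjusted p of this test was 4.32e-08 for Ppp2r5b, 2.45e-06 for Stbd1, 1.2e-05 for Slc6a17, 1.8e-05 for Slc30a1, 6.04e-05 for Rbpj-ps3, 0.00367 for Nnt (ENSMUSG00000116207), 0.00415 for Apool, 0.0147 for Eno1b, 0.0323 for Ifit3 and 0.0445 for Gbp5. Gbp5 was at 8.62 to 15 CPM in AL and 5.27 to 7.05 CPM in Ctrl mice of the first run (log2FC 1.02), and its log2FC in the second run was -1.11. Ppp2r5b and Slc30a1 each have 2 entries in the table, and the entries above were close between the groups in the first run (log2FC 0.0335 and 0.116). In the second run the Ppp2r5b entry stood at 0, 0 and 0.229 CPM in the Ctrl mice and 25.8 and 19.5 CPM in the AL mice, and the Slc30a1 entry at 0 in both AL mice and 20.9, 7.53 and 19.4 CPM in the Ctrl mice.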

How the results depend on the processing

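The first-run comparison gave 969 genes, and between 791 and 1136 with no low-count filter, a filter of 10 counts in every mouse, RLE factors, DESeq2, limma-voom, all first-run mice, all 20 mice, the Xist covariate or counts summed by symbol. Leaving out 1 mouse gave 737 (without Ctrl3) to 1037 (without AL2). The count was 517 without Ctrl1 and Ctrl3 (chosen after seeing the data), 14 with the liver marker covariate, 2997 with no limit on log2FC and 440 at a log2FC of at least 1. With the replicate number as a block it was 277 (36.8% higher, 241 shared with the 969); same-numbered mice did not deviate together (r of -0.157 to 0.0551), so the numbers do not pair them.

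The 157 different gene symbols called in the lists (158 entries, as Nnt has 2) became 72 with the replicate block, 1 with the liver covariate, 102 without Ctrl1 and Ctrl3, 329 with no limit on log2FC and 93 at a log2FC of at least 1, and 122 to 170 with 1 mouse left out. Interferon-stimulated genes called (35) became 19 over all 20 mice and 0 with the liver covariate (27 to 36 with 1 mouse left out). Liver markers called (28) became 7 of 9 with 10 counts in every mouse, 0 with the liver covariate and 5 without Ctrl1 and Ctrl3 (24 to 29). Protocadherins called (10) became 1 with the replicate block, 0 with the liver covariate, 5 without Ctrl1 and Ctrl3 and 3 at a log2FC of at least 1 (4, without Ctrl4, to 10; 5 without Ctrl3). The difference in PC1 was 54.5 to 66 with 1 mouse left out. The 97 genes that differed between the runs became 62 with 10 counts in every mouse and 480 by DESeq2, and 39 (without AL9) to 1935 (without AL8) with 1 mouse left out; it was 47 without Ctrl5 and 48 without Ctrl6.

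Of 124 called genes named by the rule, 5 (Eno1b, Rbpj-ps3, Slc37a3, Slc6a17 and Stbd1) passed under each of these settings that gave them a value, the summing of copies (added after seeing the data) apart, and with the replicate block the adjusted p of Mmp12 was 0.061. These log2FC changed sign. With the liver covariate: Apoa2 0.219, Ttr 0.381, Tsix -0.0944, Slc30a1 -0.131. With counts summed by symbol or with the copy: Nnt (ENSMUSG00000116207) -0.832, Mrps10 -0.125, Ppp2r5b -0.000608, Capza1-ps1 -0.118, Rps3a2 -0.0213, Eno1b 0.297, Rbpj-ps3 0.0774. With the replicate block: Eif2s3y -0.315, Ppp2r5b -0.00541, Uty -1.22, Ddx3y -0.89. With the Xist covariate: Eif2s3y -1.34, Kdm5d -1.22, Uty -1.64, Ddx3y -1.85. Over all 20 mice: Slc30a1 -0.778, Ddx3y -0.0787. Without Ctrl1 and Ctrl3: Slc30a1 -0.0346, Kdm5d -0.209, Uty -0.27, Ddx3y -0.581. With 1 mouse left out, Ppp2r5b ran from -0.0121 (without Ctrl4) to 0.0697 and Ddx3y from -0.00253 (without Ctrl3) to 5.65. Apart from summed copies, which add the reads of both entries, the cause was not tested.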

Other observations

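Of the 969 genes called, 811 belonged to none of the gene lists. The most abundant of these were picked out after their values were seen. Among those higher in AL mice, the nuclear long non-coding RNA Neat1 was at 456, 514 and 824 CPM in the lowest, median and highest AL mouse and at 86.8, 239, 91.5 and 381 CPM in Ctrl1 to Ctrl4, without overlap but with Ctrl mice far apart from each other (log2FC 1.61, FDR 0.0157). Mgp, the matrix Gla protein that inhibits calcification, was at 149 to 194 CPM in AL and 76.5 to 104 CPM in Ctrl mice (log2FC 0.914, FDR 0.000474). Ifitm3, an antiviral membrane protein outside the list of interferon-stimulated genes, had a log2FC of 0.835 (FDR 0.0102), and Igfbp7, a secreted binding protein of the vessel wall, 0.608 (FDR 0.00514).

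Abundant genes lower in AL mice included the following. Nebl, the cardiac Z-disc protein nebulette, was at 161, 271 and 338 CPM in the lowest, median and highest AL mouse and at 391, 402, 452 and 377 CPM in the Ctrl mice (log2FC -0.625, FDR 0.016). Lmo7, Fsd2 and Fyco1, an adaptor of autophagosome transport, were also lower (log2FC -0.643, -0.734 and -0.604, FDR 0.00525, 0.00777 and 0.0131), as was Pkia, the inhibitor of protein kinase A (log2FC -0.687, FDR 0.00308).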
